A study of Mus musculus with 8 samples.

Results

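Transcript levels of 10 genes of blood vessel endothelium and blood vessel growth were followed across normal colon and colon tumors of wild-type and caspase-12 deficient mice. The genes are Vegfa, Kdr, Flt1, Pecam1, Cdh5, Esam, Egfl7, Eng, Tek and Angpt2, of 16593 genes named on the array. They were taken as every probe annotated with one of these symbols or an older form of it, which gave 17 of the 25697 probes of an Illumina MouseRef-8 v2 beadchip. Of these probes, 13 were above background on 2 or more of the 8 arrays (a detection p under 0.01) and were tested. They represent 9 of the 10 genes, since the single Kdr probe was above background on no array.

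Total RNA from colon of C57BL/6 mice was hybridised to 1-colour arrays in 4 groups of 2 arrays each. Wild-type normal colon is called WT-N, normal colon of mice labelled caspase-12 deficient C12-N, wild-type tumor WT-T and caspase-12 deficient tumor C12-T. The age and sex of the animals, the way the deficient allele was made, how the tumors arose, any treatment shared by the groups and the place of sampling along the colon are not stated in the sources used here. The labels call the arrays of a group replicates without saying that they came from separate animals, and every p-value therefore reflects the spread of these samples alone, possibly a technical one.

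Blood vessels are lined by endothelial cells, which are held together by adhesion molecules such as VE-cadherin (Cdh5), PECAM-1 (Pecam1) and ESAM (Esam). Vegfa is the main secreted growth signal for these cells and acts through the receptors encoded by Kdr (VEGFR2) and Flt1 (VEGFR1), the latter also serving as a trap that limits the signal. The angiopoietin pathway works beside it: Tek encodes the receptor Tie2, and angiopoietin 2 (Angpt2), released by endothelial cells of remodelling vessels, can block Tie2 or activate it depending on context. Endoglin (Eng) is a co-receptor for TGF-beta family ligands on endothelium, and Egfl7 is a secreted matrix-bound protein of endothelial cells that hosts the microRNA miR-126 in an intron. Several of the genes are not restricted to endothelium: Pecam1 is also on platelets and leukocytes, Esam on platelets, and Vegfa is made by epithelial cells and macrophages. In whole tissue, fewer cells of a type and less RNA per cell cannot be told apart, which holds for every value below.

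Each array had between 43.7% and 49.1% of its probes above background. Replicates correlated at r between 0.938 and 0.976 over the tested probes, and the replicates of both tumor groups differed more than those of normal colon, with an SD of the log2 difference of 0.709 in WT-T and 0.762 in C12-T against 0.475 in WT-N and 0.480 in C12-N. The first C12-T array stood apart in markers of skeletal muscle, whose summed level was 118183 normalised intensity units there and between 765 and 4901 on the other 7 arrays. The first WT-T array had a summed level of squamous epithelium markers of 73883, against 1011 on its replicate. The probe for Casp12, the targeted gene, was above background on 2 of the 8 arrays, both of deficient mice, and read between 5.73 and 7.21 log2 units over all 8. Where this probe lies relative to the altered stretch of Casp12 is not stated in the sources used here, so it does not check the labels.

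Angpt2, Cdh5, Egfl7 and Esam were higher in C12-T than in both C12-N and WT-T. On the log2 scale, Angpt2 rose by 2.39 over C12-N, Egfl7 by 1.42, Cdh5 by 1.36 and Esam by 1.10. Vegfa, the 2 tested receptors Flt1 and Tek, and the remaining surface proteins Pecam1 and Eng did not pass the test in any comparison, and no gene passed in wild-type tumors. In C12-T against C12-N, 4 of the 9 tested genes were higher and 0 lower at an adjusted p under 0.05 (limma, Benjamini-Hochberg over all 13327 probes tested), where 9.43% of the 9341 genes tested were higher and 10.5% lower. Cdh5 passed the filter on dim probes only through the C12-T arrays, so a difference was built into its being tested. The median log2 difference of the 9 genes was 0.92, against 0.00 over all genes tested.

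**Figure D1:**
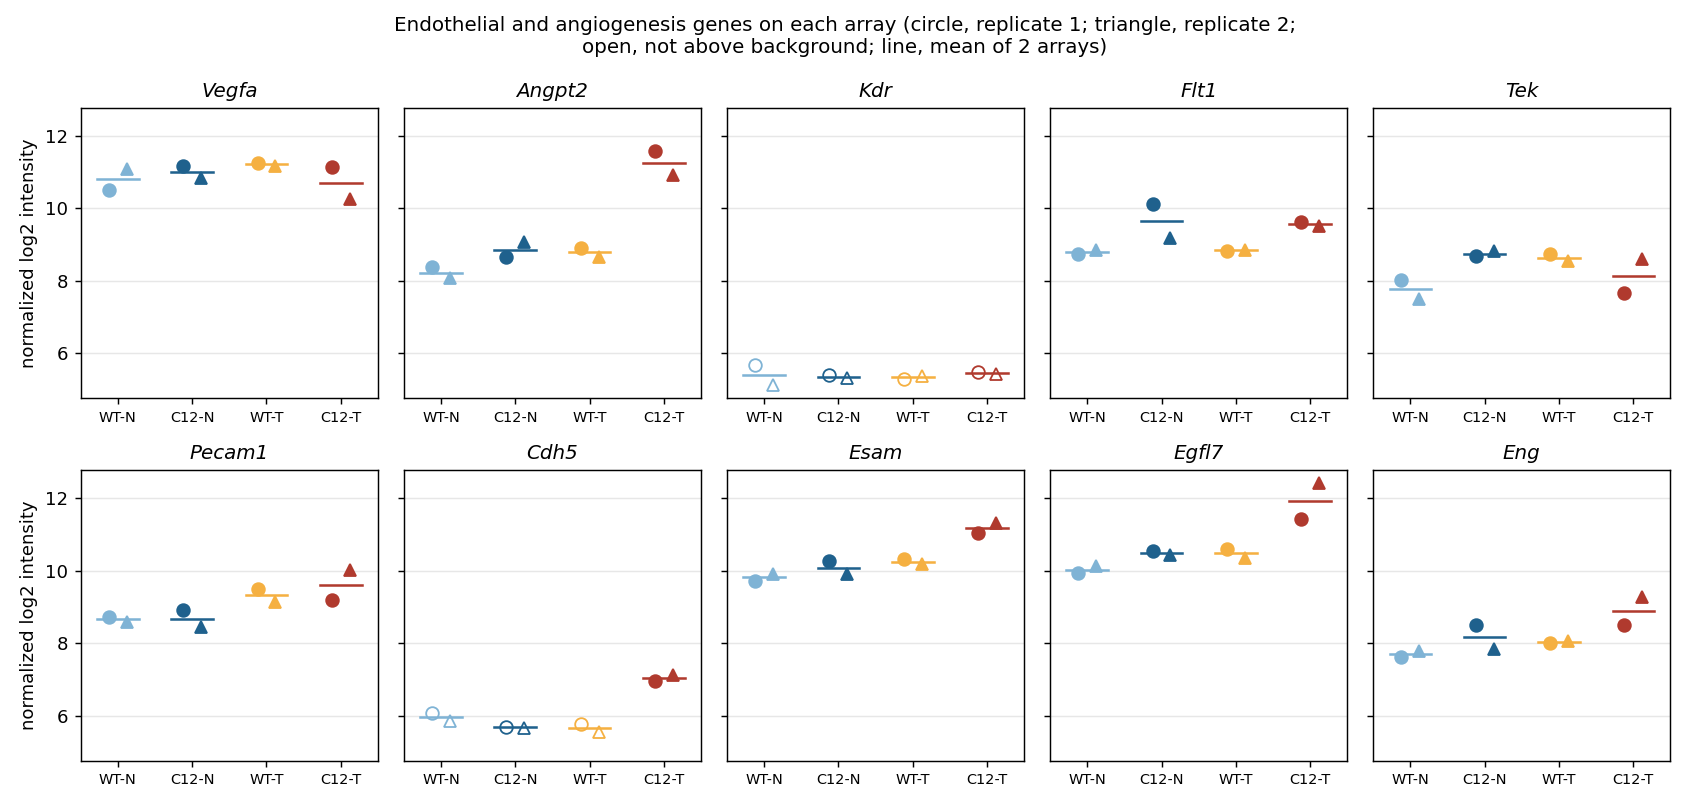
Normalised log2 intensity (vertical axis) of the probe that represents each of the 10 genes on each of the 8 arrays, with 1 point per array, a bar at the mean of the 2 arrays of a group and open points for arrays where the probe was not above background. Angpt2 stands at 11.58 and 10.92 on the C12-T arrays and at or below 9.07 on the other 6, while Kdr is open on all 8 arrays.

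Among the ligands, the Angpt2 probe (ILMN_1234487, gene at chr8:18690263-18741562) read 8.38 and 8.07 log2 units in WT-N, 8.64 and 9.07 in C12-N, 8.92 and 8.66 in WT-T, and 11.58 and 10.92 in C12-T. Both C12-T arrays lay above all 6 others, which covered a range of about 1 log2 unit. The mean was 8.86 ± 0.303 (SD, n = 2) in C12-N and 11.25 ± 0.464 (SD, n = 2) in C12-T, a difference of 2.39 (SE 0.30) or 5.24-fold (limma adjusted p = 0.00277). C12-T also exceeded WT-T, by 2.46 or 5.51-fold (limma adjusted p = 0.00417). In wild-type mice the tumor difference was 0.56 (adjusted p = 0.575), with both tumor arrays above both normal ones. The difference between these tumor effects was 1.83 (SE 0.42) and missed the threshold (limma interaction, adjusted p = 0.0598). A second Angpt2 probe (ILMN_2642165) was above background on the first C12-T array only, at 6.87, and was not tested.

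Coordinates of genes are those of RefSeq on GRCm38.p6. The genome build behind the probe annotation is not stated in the sources used here.

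Vegfa did not set C12-T apart from all the other arrays, although both C12-T arrays lay below both WT-T arrays on each tested probe. Its brighter probe (ILMN_2484527, gene at chr17:46016993-46032377) read 10.52 and 11.09 in WT-N, 11.17 and 10.83 in C12-N, 11.27 and 11.17 in WT-T, and 11.15 and 10.26 in C12-T. The C12-T arrays spanned nearly the whole range of the other groups, and the lowest of the 8 values came from the second of them. C12-T minus C12-N was -0.29, with a 95% confidence interval from -1.10 to 0.52 (limma adjusted p = 0.592). C12-T minus WT-T was -0.51, with an interval from -1.32 to 0.29 (adjusted p = 0.333), so a fall of more than 1 log2 unit or a small rise would both be within the error. The wild-type tumor difference was 0.42 (adjusted p = 0.680). A dimmer Vegfa probe (ILMN_3121255) read 8.36 and 7.87 in C12-T and between 8.19 and 8.92 on the other arrays. A further one (ILMN_3045723) was above background on no array.

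The receptors followed different courses. Kdr (ILMN_2665788, gene at chr5:75932827-75979072) read between 5.11 and 5.66 over the 8 arrays, with WT-N holding both the highest and the lowest value. It was not well above background anywhere, so no fold is given and the array does not show whether VEGFR2 transcript differed between the groups. Flt1 (ILMN_1227926, gene at chr5:147561604-147726438) read 8.75 and 8.84 in WT-N, 10.11 and 9.18 in C12-N, 8.81 and 8.86 in WT-T, and 9.63 and 9.52 in C12-T. All 4 arrays of deficient mice lay above all 4 wild-type arrays. C12-N exceeded WT-N by 0.85 (SE 0.31, limma adjusted p = 0.212) and C12-T exceeded WT-T by 0.74 (adjusted p = 0.138), and neither difference passed the test. The tumor differences of Flt1 were -0.07 in deficient and 0.04 in wild-type mice, with adjusted p of 0.896 and 0.973. Its second probe (ILMN_2732721) was above background on no array.

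Tek, the receptor of the angiopoietins, read 8.01 and 7.51 in WT-N, 8.69 and 8.81 in C12-N, 8.73 and 8.55 in WT-T, and 7.67 and 8.60 in C12-T (ILMN_1220170, gene at chr4:94739086-94874976). Both WT-N arrays lay below those of C12-N and WT-T, and the C12-T arrays lay far apart. Tumor exceeded normal by 0.88 (SE 0.34, limma adjusted p = 0.562) in wild-type mice, and was lower by a difference of -0.62 (adjusted p = 0.243) in deficient mice. The genotypes' tumor differences thus had opposite signs, with an interaction of -1.50 (SE 0.48), which did not pass (limma adjusted p = 0.132). Without the second C12-T array the interaction came to an adjusted p of 0.0303, and the lone C12-T array was then taken to vary like the other groups. C12-T against C12-N is carried by the first C12-T array, the one with the skeletal muscle markers: without it the Tek difference was -0.15 (adjusted p = 0.816).

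The endothelial junction gene Cdh5, which encodes VE-cadherin (ILMN_2866951, gene at chr8:104101613-104144504), read 6.06 and 5.86 in WT-N, 5.69 and 5.67 in C12-N, 5.77 and 5.54 in WT-T, and 6.96 and 7.12 in C12-T. It was above background on both C12-T arrays and on none of the other 6. C12-T minus C12-N was 1.36 (SE 0.21, limma adjusted p = 0.00618), and C12-T minus WT-T was 1.39 (adjusted p = 0.00784). Since the dim groups have only a bound, the folds are at least 1.17 against C12-N and at least 1.41 against WT-T. These bounds set each dim array at the lowest signal called above background on it, or at the probe's own signal where that was higher. The tumor difference in wild-type mice was -0.31 (adjusted p = 0.625). Cdh5 was the only one of the 9 tested genes whose interaction passed, at 1.67 (SE 0.30, limma adjusted p = 0.0322), where 1.73% of all genes tested passed upward and 2.29% downward. All arrays of the other 3 groups read below background, so the call was in part built into the probe's being tested, and the wild-type difference within it compares background readings. The interaction lost its call without either WT-N, either C12-N, the second WT-T or the first C12-T array, with adjusted p between 0.0557 and 0.124.

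Esam, the other junction molecule that changed (ILMN_2690839, gene at chr9:37528089-37538319), was above background on all 8 arrays. It read 9.73 and 9.91 in WT-N, 10.26 and 9.91 in C12-N, 10.32 and 10.19 in WT-T, and 11.04 and 11.32 in C12-T. Both C12-T arrays were higher than the other 6. C12-T exceeded C12-N by 1.10 (SE 0.23) or 2.14-fold (limma adjusted p = 0.0178) and WT-T by 0.93 (SE 0.23, adjusted p = 0.0331). The wild-type tumor difference was 0.44 (adjusted p = 0.575), with no overlap between the tumor and normal arrays. The interaction was 0.66 (adjusted p = 0.304), so a difference in tumor effect between the genotypes was not shown.

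Pecam1, measured by 2 tested probes (gene at chr11:106654213-106715281), turned on single arrays. The brighter probe (ILMN_2700982) read 8.73 and 8.60 in WT-N, 8.92 and 8.45 in C12-N, 9.50 and 9.15 in WT-T, and 9.19 and 10.01 in C12-T. All 4 tumor arrays exceeded all 4 normal ones on this probe, and the highest was the second C12-T array. The differences were 0.92 (SE 0.33, limma adjusted p = 0.0897) in deficient and 0.66 (adjusted p = 0.568) in wild-type mice, and neither passed. Without the first C12-T array the difference in deficient mice was 1.33 and passed (adjusted p = 0.0430). The other probe (ILMN_3147074) read 8.27 and 9.52 in C12-T and between 7.85 and 8.13 on the other 6 arrays. Its C12-T minus C12-N difference of 0.90 (adjusted p = 0.145) rests on the second C12-T array. The probes therefore disagreed on wild-type tumors, where the dimmer one gave -0.09.

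Eng, the TGF-beta co-receptor (ILMN_1229161, gene at chr2:32646595-32682669), read 7.61 and 7.77 in WT-N, 8.51 and 7.83 in C12-N, 8.01 and 8.05 in WT-T, and 8.50 and 9.28 in C12-T. The C12-T arrays were above both WT-T arrays and overlapped C12-N. C12-T minus C12-N was 0.72 (limma adjusted p = 0.171) and C12-T minus WT-T was 0.86 (adjusted p = 0.112). Neither passed the test.

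Egfl7 has 3 tested probes (gene at chr2:26581083-26592682), each annotated to a different RefSeq transcript record, and they did not move alike. The brightest (ILMN_3163288) read 9.94 and 10.12 in WT-N, 10.55 and 10.45 in C12-N, 10.61 and 10.35 in WT-T, and 11.42 and 12.42 in C12-T. Both C12-T arrays were above the other 6, and they differed from each other by 1 log2 unit. C12-T exceeded C12-N by 1.42 (SE 0.33) or 2.68-fold (limma adjusted p = 0.0246) and WT-T by 1.44 (adjusted p = 0.0258). The middle probe (ILMN_1215919) read 7.42 and 7.97 in WT-N, 8.15 and 8.23 in C12-N, 8.23 and 8.18 in WT-T, and 8.78 and 9.97 in C12-T. Its differences of 1.18 over C12-N and 1.17 over WT-T ran the same way and missed the threshold (limma adjusted p = 0.0726 and 0.0777). The dimmest (ILMN_2631417) read between 6.13 and 7.00, was above background on 1 WT-N and 1 WT-T array only, and differed by -0.08 between C12-T and C12-N (adjusted p = 0.878).

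RefSeq lists 3 transcription starts for Egfl7 on the plus strand of chromosome 2 in GRCm38.p6. Their promoters are shown because Egfl7 is the called member with probes annotated to several transcripts, though only its brightest probe passed. Each window runs from 250 bases before the start to 50 bases after it, at chr2:26580833-26581132, chr2:26583615-26583914 and chr2:26586386-26586685. Capitals mark matches, on either strand, to CAGGAAG, a sequence of the kind bound by ETS factors, a family with known roles in endothelial transcription. Which start the transcript of each probe uses is not given in the files.
Egfl7 start 1: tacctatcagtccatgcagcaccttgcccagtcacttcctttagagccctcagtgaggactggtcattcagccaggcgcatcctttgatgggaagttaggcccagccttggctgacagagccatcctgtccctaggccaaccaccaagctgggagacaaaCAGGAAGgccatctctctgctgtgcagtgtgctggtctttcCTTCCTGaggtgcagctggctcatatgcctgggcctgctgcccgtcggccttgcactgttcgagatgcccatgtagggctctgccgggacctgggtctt
Egfl7 start 2: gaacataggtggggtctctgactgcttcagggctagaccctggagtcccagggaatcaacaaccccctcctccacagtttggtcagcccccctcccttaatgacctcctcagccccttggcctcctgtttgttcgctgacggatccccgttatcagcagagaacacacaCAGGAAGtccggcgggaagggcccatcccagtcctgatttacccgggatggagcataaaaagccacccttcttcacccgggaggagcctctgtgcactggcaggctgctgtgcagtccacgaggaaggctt
Egfl7 start 3: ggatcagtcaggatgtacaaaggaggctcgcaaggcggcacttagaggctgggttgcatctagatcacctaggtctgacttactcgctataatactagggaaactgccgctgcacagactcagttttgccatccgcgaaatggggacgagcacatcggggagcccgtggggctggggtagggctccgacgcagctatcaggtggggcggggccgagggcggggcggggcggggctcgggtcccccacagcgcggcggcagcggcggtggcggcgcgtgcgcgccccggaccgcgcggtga

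Start 1 holds the ETS motif 2 times, at -90 to -84 from the start on the gene's strand and at -49 to -43 on the opposite strand. Start 2 holds it 1 time, at -81 to -75, and start 3 holds 0 matches. Of the 32851 RefSeq promoters of the same length, 13.3% hold this motif. Promoter windows were found for 6 of the 10 genes, 9 windows in all, and the ETS motif was in 2 of them, both of Egfl7. The core bound by hypoxia-inducible factors (ACGTG or GCGTG on either strand, which overlaps no ETS match here) was in 43.8% of all promoters. Of the 2 Vegfa promoters, the one that lies within the gene (chr17:46025114-46025413) holds it 2 times. The one at the upstream end of the gene (chr17:46032328-46032627) holds it 0 times. The Kdr promoter holds it 2 times. The Flt1 promoter and Egfl7 start 3 each hold it 1 time. A match describes letters in a window and is not a measured binding site.

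**Figure D2:**
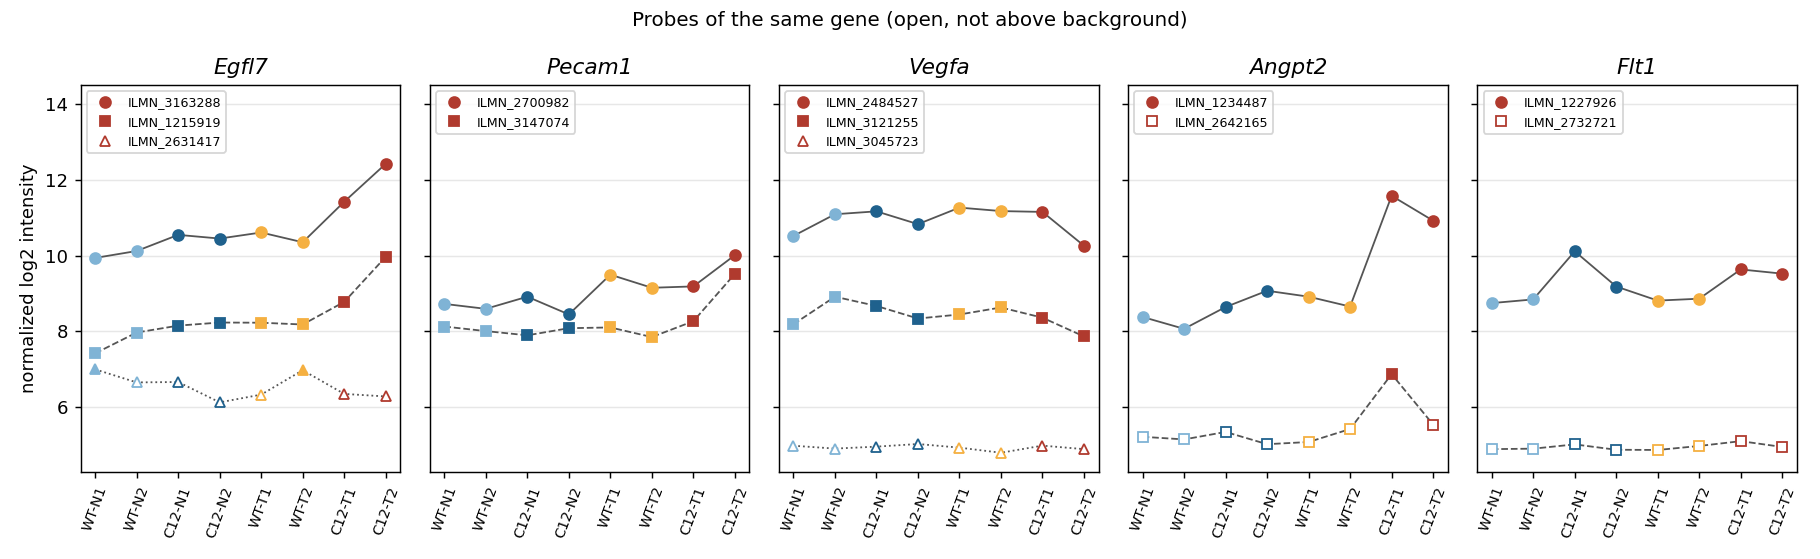
Normalised log2 intensity (vertical axis) on each of the 8 arrays for the genes with several probes, with 1 line per probe and open points where the probe was not above background. The brightest Egfl7 probe reaches 11.42 and 12.42 on the C12-T arrays while the dimmest stays between 6.13 and 7.00, and the 2 tested Pecam1 probes part in wild-type tumors.

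In C12-T against WT-T, the comparison of genotypes within tumors, Angpt2, Cdh5, Egfl7 and Esam passed upward and 0 of the 9 tested genes passed downward. Over all genes tested 8.54% were higher and 9.09% lower, and the median log2 difference was 0.86 for the 9 genes against 0.02 for all. This comparison shares the C12-T arrays with the one before, so the same 4 genes in both are not separate evidence.

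In wild-type tumors against wild-type normal colon 0 of the 9 genes passed the limma test, as did 0% of all genes tested, although 1154 probes had an unadjusted p under 0.05. Among the 9 genes Tek alone had an unadjusted p under that level. The median difference of the 9 genes was 0.44, against 0.00 over all genes. In 7 of the 9 both WT-T arrays were above both WT-N arrays, which was so for 22.7% of all genes, and in 1, Cdh5, both were below (23.0% of all genes). Their differences ran from 0.34 for Eng to 0.88 for Tek, and the groups overlapped for Flt1.

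Normal colon of the 2 genotypes differed in 0 of the 9 genes by the limma test, where 1.16% of all genes were higher in C12-N and 1.15% lower. Flt1 and Tek had an unadjusted p under 0.05. The largest differences were those of Tek (0.99, SE 0.34, limma adjusted p = 0.189) and Flt1 (0.85, adjusted p = 0.212). The median over the 9 genes was 0.47 against 0.04 over all genes. The wild-type tumor comparison uses the same WT-N arrays, so their levels enter both medians.

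**Figure D3:**
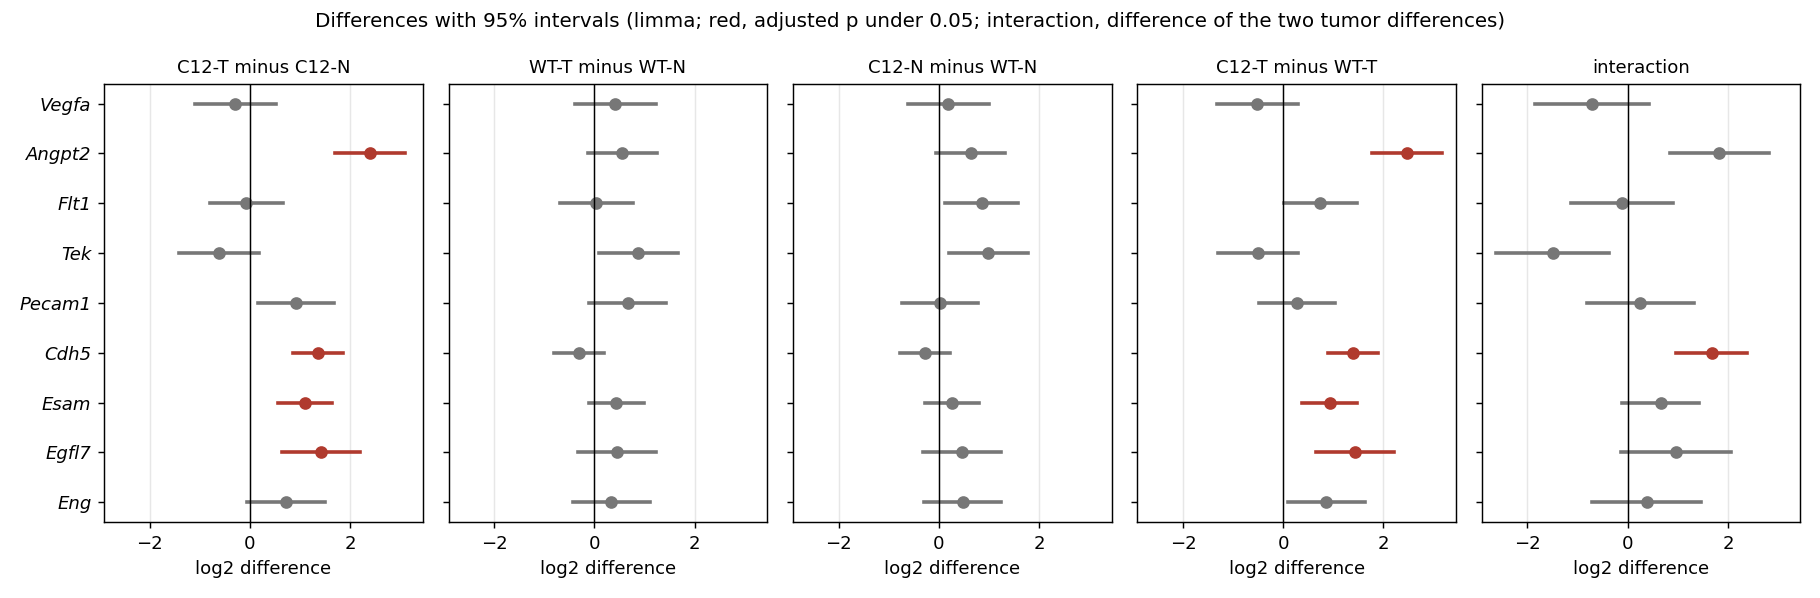
Log2 difference (horizontal axis) with its 95% confidence interval from the limma model for each of the 9 tested genes. Panels show tumor against normal colon for each genotype, the genotypes for each tissue and the interaction. Points are red where the adjusted p was under 0.05 and grey elsewhere. Red points are those of Angpt2, Cdh5, Egfl7 and Esam in both comparisons with C12-T, and Cdh5 in the interaction.

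The first C12-T array carried the muscle signal, so the called genes were also compared without it, with the lone remaining C12-T array taken to vary like the other groups. Against C12-N the difference was then 2.06 for Angpt2 (limma adjusted p = 0.00974), 1.44 for Cdh5 (0.0206), 1.92 for Egfl7 (0.00764) and 1.24 for Esam (0.0393). All 4 kept their call there, so the rise over C12-N was as large or nearly as large without that array. Without the second C12-T array, Angpt2 (2.72) and Cdh5 (1.28, adjusted p = 0.0207) kept theirs, while Egfl7 (0.92, adjusted p = 0.0664) and Esam (0.96, adjusted p = 0.0667) lost it. Egfl7 and Esam lost their calls against C12-N without the second C12-N array as well, and Egfl7 also without the first. Against WT-T, Esam lost its call without the first C12-T array (1.07, adjusted p = 0.0707), and both genes lost theirs without either WT-T array or the second C12-T array. Esam also lost it without either WT-N array (adjusted p = 0.0621).

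Other genes of the same pathways were counted from 5 lists. Among other genes of VEGF, angiopoietin and Tie signalling, such as Nrp1, Nrp2, Ptprb and Tie1, 9 of 14 were tested and 0 passed in C12-T against C12-N in either direction, 2 of them at an unadjusted p under 0.05. Their median difference was 0.32, against 0.00 over all genes. In C12-T against WT-T 0 passed as well, with a median of -0.11. In these comparisons 9.43% and 8.54% of all genes were higher and 10.5% and 9.09% lower, and 0 of 9 shows little against these shares. Under single alternatives 1 gene of this list passed in each comparison, and the other 5 of the 14 were not tested.

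Of 28 other endothelial markers, 20 were tested, and 6 were higher and 0 lower in C12-T than in C12-N, with a median of 1.12, against 9.43% higher and 10.5% lower and a median of 0.00 over all genes tested. Of the 20, 3 passed the filter on dim probes only through the C12-T arrays (Tal1, Nos3 and Tm4sf1), and 2 of the 6 higher genes were among these 3, so a difference was built into their being tested. The largest of the 6 were Sox17 (3.24, SE 0.92, limma adjusted p = 0.0465), Sox7 (2.12, at least 2.21-fold, adjusted p = 0.0318) and Tal1 (1.79, at least 1.20-fold, adjusted p = 0.0177). Sox17 and Sox7 encode related transcription factors of endothelium, and Tal1 one shared by blood and endothelial progenitors. Sox17 is also found in other epithelia and Tal1 in red cell precursors and megakaryocytes. Against WT-T 5 of the 20 were higher and 0 lower (8.54% and 9.09% of all genes tested), 2 of them again genes tested only through C12-T. Among the 5 were Sox17 (3.64), Tal1 (1.97, at least 1.45-fold) and the endothelial nitric oxide synthase Nos3 (1.39, at least 2.10-fold). The count against C12-N was 0 without the second C12-N array, 2 without the first C12-N array or either WT-N array, and 3 without either WT-T array. The count against WT-T was 0 without the second WT-T array, 2 without the first and 1 without either WT-N array.

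Of 15 genes of vessel sprouting and Notch signalling, 11 were tested, with 4 higher and 1 lower in C12-T than in C12-N (9.43% and 10.5% of all genes) and a median of 0.68 (0.00 over all genes). Cxcr4, a chemokine receptor of tip cells and leukocytes, was 2.09 higher (at least 2.55-fold, limma adjusted p = 0.00601). Adam8, a protease that neutrophils also carry, was 1.90 higher (at least 1.62-fold, adjusted p = 0.00249) and was tested only through the C12-T arrays, so a difference was built in. The endothelial Notch receptor Notch4 was 1.78 higher (adjusted p = 0.00604). The single fall was that of Efnb2, the ephrin that marks arterial endothelium and is also made by epithelium, at -1.07 (adjusted p = 0.0367). Notch4 was lower in C12-N than in WT-N, by a difference of -1.45 (adjusted p = 0.0463), and its C12-T mean of 10.42 was close to that of WT-N at 10.08. Against WT-T, Esm1, an endothelial tip cell gene, was 3.39 higher (at least 8.38-fold), Angptl4 2.00 higher, Adam8 1.55 higher (at least 1.96-fold) and Efnb2 lower at -1.17, making 4 higher and 1 lower (8.54% and 9.09% of all genes) with a median of 0.78 (0.02 over all genes). Esm1 was not above background on either WT-T array. Its means were 7.83 in WT-N, 8.93 in C12-N, 6.22 in WT-T and 9.61 in C12-T. The gap to WT-T thus includes a low WT-T level (WT-T minus WT-N -1.61, limma adjusted p = 0.561), and C12-T minus C12-N was 0.68 (adjusted p = 0.468). Angptl4 was 1.18 higher in C12-N than in WT-N (adjusted p = 0.208) and 0.80 higher in C12-T than in C12-N (adjusted p = 0.226). The 5 calls against WT-T came to 1 without the second WT-T array and to 3 without the first WT-T or the first C12-T array, and the 5 against C12-N to 3 without the first C12-N, the first C12-T or either WT-N array.

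Among 12 genes of vessel basement membrane and angiogenesis inhibitors 9 were tested, and 5 were higher and 0 lower in C12-T than in C12-N (9.43% and 10.5% of all genes), with a median of 1.47 (0.00 over all genes). Col18a1, whose protein yields the inhibitor endostatin, was 2.25 higher (limma adjusted p = 0.00258). The antiangiogenic matrix protein Thbs2 was 1.94 higher (adjusted p = 0.00966) and the basement membrane collagen Col4a1 1.91 higher (adjusted p = 0.00377). These genes are also expressed by fibroblasts and epithelium. Against WT-T 3 of the 9 were higher and 0 lower (8.54% and 9.09% of all genes), and their differences were 1.80 for Thbs2, 1.50 for Col18a1 and 1.46 for Col4a1. The 5 calls against C12-N came to 3 without either C12-N array or the second C12-T array, and the 3 against WT-T to 0 without the second WT-T array.

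Of 14 genes of the hypoxia response, which includes known inducers of Vegfa, 11 were tested, with 2 higher and 2 lower in C12-T than in C12-N and a median of 0.03. The shares over all genes were 9.43% and 10.5%, and counts of 2 and 2 of 11 are near these. Hif1a (1.92, limma adjusted p = 0.0267) and the prolyl hydroxylase Egln3 (1.14, adjusted p = 0.00999) were higher. Hif1a had a mean of 9.56 in WT-N, 7.38 in C12-N, 10.19 in WT-T and 9.31 in C12-T, so its rise is against a low C12-N level (C12-N minus WT-N -2.18, adjusted p = 0.0627), and C12-T minus WT-T was -0.89 (adjusted p = 0.216). The carbonic anhydrase Car9 (-1.53, adjusted p = 0.0115) and the collagen hydroxylase P4ha1 (-1.32, adjusted p = 0.0225) were lower. Against WT-T 0 were higher and 3 lower (8.54% and 9.09% of all genes), with a median of -0.87 (0.02 over all genes). These were Car9 (-1.45), Epas1 (-1.38, at least 2.03-fold lower), which encodes the endothelial HIF-2 alpha, and Egln3 (-0.79). Egln3 was also lower in C12-N than in WT-N, at -1.27 (adjusted p = 0.0263), so for Egln3 too the sign depends on the group it is set against. The 4 calls against C12-N came to 0 without the first C12-N array, 1 without the second and 2 without either C12-T array. The 3 against WT-T came to 0 without the second WT-T or the first C12-T array and 1 without the first WT-T array.

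In wild-type tumors 0 members of any of the 5 lists passed. In the interaction 1.73% of all genes tested passed upward and 2.29% downward. Among the members of these lists the interaction passed for Col18a1, above background on all 8 arrays (2.13, limma adjusted p = 0.0336). It also passed for Adam8 (1.95, adjusted p = 0.0255), which was above background on the C12-T arrays only, so its wild-type term and C12-N level are background readings. Both lost that call without any one of several arrays, among them each WT-N and each C12-N array.

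**Figure D4:**
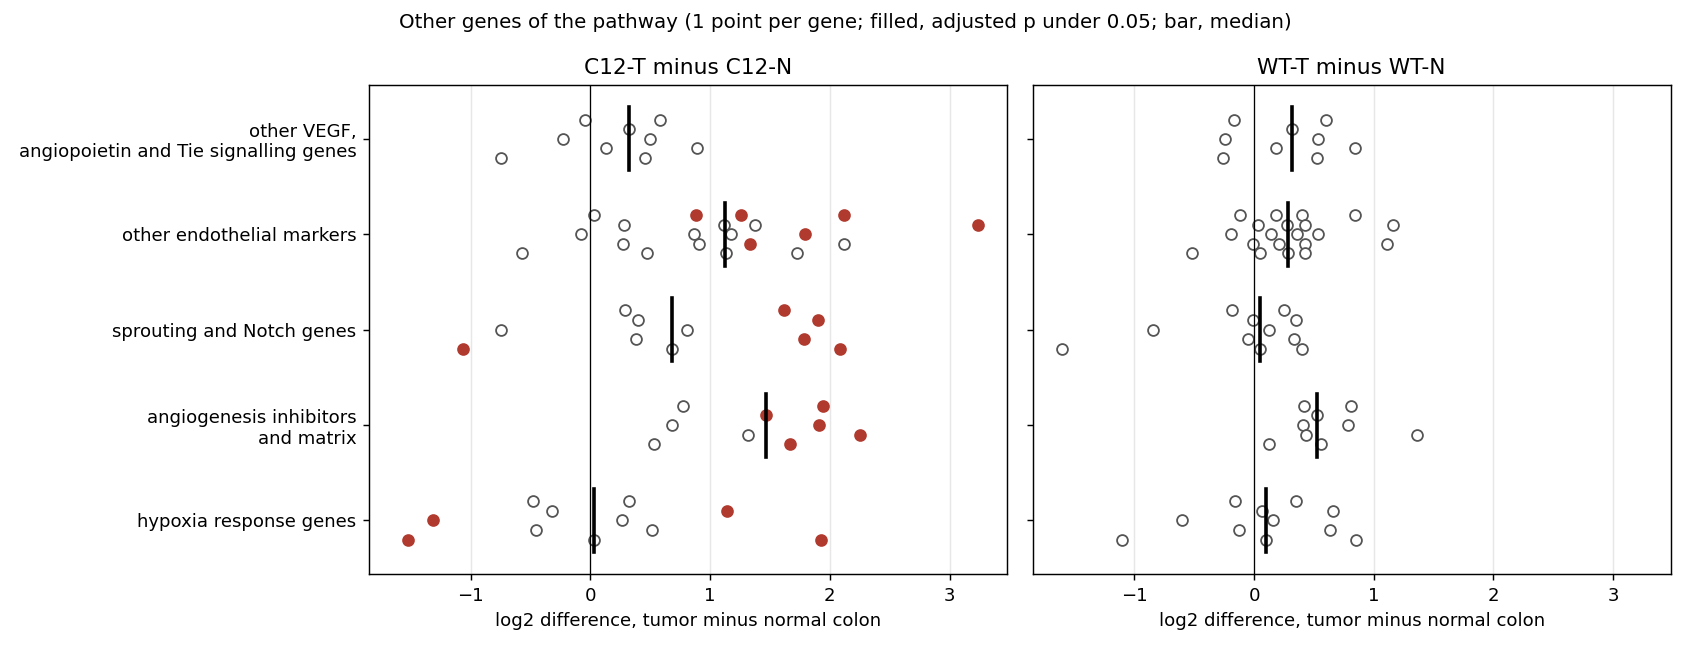
Log2 difference (horizontal axis) of every tested member of the 5 pathway lists in tumor against normal colon of each genotype. There is 1 point per gene, filled where the adjusted p was under 0.05, and a bar at each list's median. In deficient mice the bar stands at 1.12 for other endothelial markers, 1.47 for basement membrane and inhibitors and 0.03 for the hypoxia response.

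Markers of the tissue itself were set beside these values. Of 9 defining endothelial markers, 7 were tested, Kdr was not above background, and their summed level was 2093 and 1901 in WT-N, 3114 and 2344 in C12-N, 2844 and 2753 in WT-T, and 3181 and 4754 in C12-T. This sum is not separate from the values above, since it holds Pecam1, Cdh5 and Tek, of which Cdh5 was tested only through the C12-T arrays. Its other tested genes, Vwf, Emcn, Icam2 and Tie1, were counted in the lists above. Both C12-T sums were above the others, the first of them only just above a C12-N array. The tested markers did not move alike between C12-T and C12-N. Vwf, the endothelial clotting factor, differed by 1.17 and missed the threshold (limma adjusted p = 0.0527), while the surface proteins Emcn and Icam2 differed by 0.03 and -0.08 (adjusted p = 0.941 and 0.877). Colon epithelium markers, of which 7 of 8 were tested, summed to 72991 and 79301 in C12-T against 119430 to 142073 on the other 6 arrays. Smooth muscle markers (all 6 tested) summed to 54205 and 94957 in C12-T and to between 102151 and 154068 elsewhere, and 2 of the 6 were lower against C12-N and 5 against WT-T (10.5% and 9.09% of all genes).

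Cells that share some of these genes moved as well. Platelet and red cell markers (5 of 9 tested) summed to 73259 and 31136 in C12-T, to 5770 and 8145 in C12-N, to 16905 and 4594 in WT-T, and to 4243 and 2371 in WT-N. Single genes dominated these sums: the alpha globin gene Hba-a1 read 15.69 on the first C12-T array, and the platelet chemokine gene Ppbp read 13.97 on the first WT-T array against 5.03 on its replicate. The other 4 tested markers of this list, among them Pf4 (9.22 against 10.86) and Hba-a1 (7.92 against 11.36), were lower on the first WT-T array than on the second. Neutrophil markers (5 of 7 tested) summed to 103890 and 112636 in C12-T and to between 448 and 38932 on the other arrays. Squamous epithelium markers (all 8 tested) summed to 58245 and 137663 in C12-T, 73883 and 1011 in WT-T, and between 591 and 2173 in normal colon. On both C12-T arrays the sums of the red cell and platelet, neutrophil and squamous markers were therefore high together with Angpt2, Cdh5, Egfl7 and Esam. On the first WT-T array the neutrophil and squamous sums were above those of its replicate. The neutrophil sum there, 38932, was below those of both C12-T arrays and was dominated by Ltf, at 15.14 against 8.08 on the replicate. The other tested neutrophil markers were also above the replicate, by less. On that array S100a8 read 10.71, below both WT-N arrays (11.70 and 11.85), and S100a9 read 9.80, between them (10.15 and 9.72). Csf3r read 7.11, above both WT-N arrays (6.60 and 7.03). The second minus the first WT-T array ran from -0.26 to -0.13 log2 units for Angpt2, Cdh5, Egfl7 and Esam. The part of these other cells in the results was not tested. Pericyte markers summed to 1817 and 3401 in C12-T and to between 1160 and 2792 elsewhere, so only the second C12-T array lay above the other groups.

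**Figure D5:**
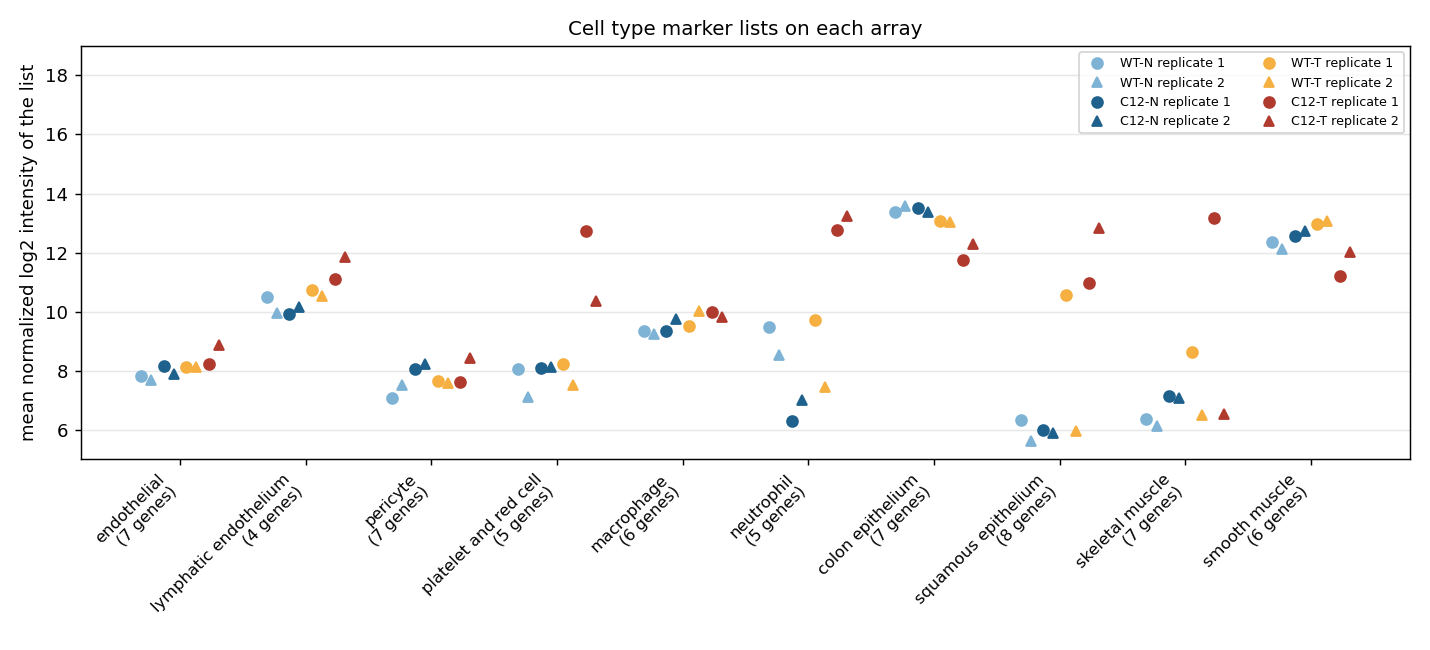
Mean normalised log2 intensity (vertical axis) of the tested markers of each cell type on each of the 8 arrays, with 1 point per array. Skeletal muscle markers stand at 13.15 on the first C12-T array and at or below 8.64 on the others. Neutrophil markers stand at 12.77 and 13.25 in C12-T, and endothelial markers between 7.68 and 8.85 throughout.

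For Vegfa and Cdh5 the 3 genes with the most similar pattern were taken by Pearson correlation of log2 levels over the 8 arrays, among 9212 candidate genes. Vegfa was closest to Zfyve27 (r = 0.893), Trp53inp1 (0.880) and Ccdc130 (0.869). Cdh5 was closest to Retnlg (0.991), Asprv1 (0.984) and Plaur (0.983), of which Retnlg is a neutrophil gene and Asprv1 one of squamous epithelium. These values describe likeness over 8 arrays in which both C12-T arrays stand apart from the rest, and no test was made. The Cdh5 probe was above background only on those 2 arrays and Retnlg on 3 of the 8, so this likeness mostly sets background readings against C12-T.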

How the data were processed

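Per the file headers, the deposited table gave, for 25697 probes and 8 arrays, an intensity with its detection p-value. The submitters' processing notes name BeadStudio 3.2.7. The deposited log2 values of the series table equalled the log2 ratio of intensity to array mean, within 1.7e-05, and were used as an alternative. No column was left unused.

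Intensities were background corrected, quantile normalised and taken to log2 with neqc (offset 16) in limma 3.58.1 under R 4.3.3. Tested probes (13327) had a detection p under 0.01 on 2 or more arrays, and the brightest tested probe stood for its gene (9341 genes). Where different probes of a gene disagreed, both are given. One limma model of the 4 group means, with 4 residual and 3.55 prior degrees of freedom, gave all 5 comparisons. P-values were two-sided and Benjamini-Hochberg adjusted over all tested probes, with a threshold of 0.05. A probe not above background anywhere in a group gives only a bound on the fold, computed from the lowest signal called above background on each array. Probe symbols came from the deposited platform annotation, updated through the RefSeq gene table, and promoters came from RefSeq (GRCm38.p6).

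The genes and the lists were chosen with earlier results of these data known. From each list, up to 3 genes past the threshold with the largest differences are named in a comparison, and Kdr, Vwf, the cell type markers, Efnb2, Egln3, Tm4sf1 and genes that serve as examples are named beyond that, chosen after their values were seen. The alternatives were limma array weights, an offset of 50, no background correction, cyclic loess, median scaling, the deposited values, other filters on dim probes, a trended and robust prior, a replicate block and leaving out each array. Slides and scan dates are not stated in the sources used here.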

Additional observations from a re-analysis of the deposited data

Results flagged for a closer look

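The tumor difference of Cdh5 differed between the genotypes: it was 1.36 log2 units in deficient and -0.31 in wild-type mice, and the difference of 1.67 between them passed the interaction test (limma adjusted p = 0.0322, SE 0.30). Both C12-T arrays were higher than both C12-N arrays, and both WT-T arrays were lower than both WT-N arrays. The probe was above background on the C12-T arrays only and was tested only through them, so a difference was built in and the wild-type values, with their direction, are background readings.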

How the results depend on the processing

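Angpt2 and Cdh5 kept their calls against C12-N and WT-T in each of the 18 and 17 alternatives that could be run for them, with differences of 2.06 to 2.79 and 0.62 to 1.51. Cdh5 is not among probes detected on all 8 arrays. It would also fail the filter on dim probes without either C12-T array, but was kept in those alternatives. Egfl7 lost its call in 3 of 18 alternatives in both comparisons, and Esam in 2 of 18 against C12-N and 7 of 18 against WT-T, array weights among them (adjusted p = 0.0665). Leaving out 1 array, between 2 and 5 of the 9 genes passed against C12-N, between 2 and 4 against WT-T and between 0 and 3 in the interaction (Angpt2, Cdh5 and Tek without the second C12-T array). With an offset of 50, with the deposited values, or with a trended and robust prior, 0 passed in the interaction. Without background correction Cdh5 lost its interaction (0.76, adjusted p = 0.104) and Angpt2 passed (adjusted p = 0.0475), as it did among probes detected on all 8 arrays (adjusted p = 0.0471). Causes were not tested. Counts over all probes moved more widely: 2581 against C12-N came to between 809 and 2709 with 1 array left out, and 2461 against WT-T to between 1116 and 2082, or 1441 with array weights. The 292 calls in normal colon came to 144 for probes on all 8 arrays, 193 with no filter, 641 with weights and 38 to 470 with 1 array left out. The 521 interaction calls came to 297 with no filter, 329 for probes on all 8 arrays and 23 to 1141 with 1 array left out, and 105 probes passed in wild-type tumors without the second WT-T array. Rises made up 44.9% of the calls against C12-N, 55.8% with the deposited values, where the median of all probes was 0.11, and 40.6% with median scaling, where it was -0.10. Probe differences that changed sign were all uncalled. With the deposited values these were Flt1 in deficient tumors (0.12), ILMN_2631417 of Egfl7 in deficient tumors (0.035), wild-type tumors (0.044) and the interaction (-0.0088), ILMN_3121255 of Vegfa and ILMN_3147074 of Pecam1 in wild-type tumors (0.17 and 0.13) and normal colon (0.024 and 0.020). Cyclic loess gave 0.018 for ILMN_2631417 in deficient tumors, and median scaling -0.010 for Flt1 in wild-type tumors. With 1 array left out, the differences ran from -0.74 to 0.15 for Vegfa, -0.53 to 0.39 for Flt1 and -0.35 to 0.19 for ILMN_2631417 in deficient tumors. In wild-type tumors they ran from -0.0060 to 0.091 for Flt1, -0.38 to 0.35 for ILMN_3121255, -0.22 to 0.036 for ILMN_3147074 and -0.49 to 0.15 for ILMN_2631417. In normal colon they ran from -0.092 to 0.48 for Vegfa, -0.21 to 0.25 for Pecam1, -0.41 to 0.32 for ILMN_3121255 and -0.17 to 0.017 for ILMN_3147074. Pecam1 ran from -0.14 to 0.69 in C12-T against WT-T. In the interaction they ran from -0.58 to 0.35 for Flt1, -0.16 to 0.67 for Pecam1, -0.0037 to 0.77 for Eng and -0.23 to 0.41 for ILMN_2631417. Group labels share replicate numbers, but deviations of same-numbered arrays correlated at only -0.03 to 0.16, and nothing in the labels pairs them. With a replicate block 4 genes passed against C12-N, 0 in wild-type tumors, 0 in normal colon, 4 against WT-T and 1 in the interaction, the counts found without it. Dim signal limits Kdr, Cdh5 and the second probes of Angpt2 and Flt1.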

Other observations

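The pericyte gene Rgs5, which encodes a regulator of G protein signalling in cells around small vessels, was chosen after its values were seen. Its mean level was 6.82 log2 units in WT-N, 9.55 in C12-N, 7.47 in WT-T and 7.17 in C12-T. C12-N exceeded WT-N by 2.73 (at least 6.50-fold, limma adjusted p = 0.00198), and C12-T was below C12-N by a difference of -2.37 (adjusted p = 0.00106). The interaction was -3.02 (adjusted p = 0.00790). Pdgfrb, the pericyte receptor for platelet-derived growth factor, went the other way between C12-T and C12-N, at 1.26 (adjusted p = 0.0112). Prox1, a transcription factor of lymphatic endothelium that is also made in some epithelial cells, was 4.18 higher in C12-T than in C12-N (at least 12.5-fold, adjusted p = 0.0111). The other 3 tested lymphatic markers did not pass in that comparison: Pdpn differed by 1.08, Ccl21a by 0.37 and Lyve1 by 0.17 (adjusted p = 0.128, 0.687 and 0.800), and against WT-T Ccl21a and Lyve1 stood at -0.66 and -0.39. Against WT-T 1 of the 4 tested lymphatic markers was higher and 0 lower, with a list median of 0.19. Of the pericyte markers, Notch3, Kcnj8, Mcam, Abcc9 and Cspg4 did not pass between C12-T and C12-N either. That left 1 of 7 higher and 1 lower, where 9.43% and 10.5% of all genes tested were. Against WT-T 2 of the 7 pericyte markers were higher and 0 lower (8.54% and 9.09% of all genes tested).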
